A study of Mus musculus with 3 samples.

Results

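Lambda light chain B cells are the B cells of mouse blood whose antibody light chain messages come mainly from the lambda constant genes. A barcode counted as one when it passed quality limits, namely 200 or more genes and no more than 10% of its UMIs (the unique molecular identifiers that count RNA molecules) from mitochondrial genes, and a B cell gate. The gate asked for at least 3 UMIs of the B cell receptor chains Cd79a and Cd79b together, at most 1 UMI of the T cell genes Cd3e, Cd3d and Cd3g, and under 3% of UMIs from S100a8 and S100a9. The light chain step then asked for at least 5 UMIs of Iglc1, Iglc2 and Iglc3 together, more than of Igkc. Members were thus chosen by their measured UMI counts of these genes. The rule found 720 cells among 22204 barcodes, of which 18885 passed quality and 7726 passed the B cell gate. Cells with at least 5 Igkc UMIs, more than of the lambda sum, form the kappa class of 6943 cells, and 63 gated cells had no class, of which 28 were ties and 35 had under 5 UMIs of either kind.

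The study collected blood leukocytes from C57/BL6J mice after 24 h (SD24h) or 48 h (SD48h) of sleep deprivation and from a control group (Con, 0 h). Each group was 1 library, pooled from 3 mice after red cell lysis, designed for about 7000 cells and prepared with a droplet kit that reads the 3′ end of each message. The deposited matrix pools 3 libraries, told apart by the number that ends each barcode. Which ending belongs to which group is not stated in the labels, so the libraries are called 1, 2 and 3, they are never set against each other as treatments, and lambda cells were compared with kappa cells inside each library. The animals' age and sex were not given in the sources used here. With 1 library a group there is no test between groups. Every interval below is a 95% interval for counting error only.

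Each B cell builds its receptor from heavy chains and light chains, and a light chain is either kappa or lambda. During maturation in the bone marrow the kappa locus usually rearranges first, and most mouse B cells keep a kappa chain. A lambda chain is made mainly by cells whose kappa rearrangements failed or gave a self-reactive receptor, and a cell normally shows only 1 light chain type on its surface (isotypic exclusion). The mouse lambda locus is small, with few variable genes and few constant genes.

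In the GRCm38 build with GENCODE M21 annotation, all lambda constant genes lie on the minus strand of chromosome 16, Iglc1 at chr16:19061618-19062071, Iglc3 at chr16:19065230-19065681 and Iglc2 at chr16:19198396-19200351. Igkc, the single kappa constant gene, lies on the plus strand at chr6:70726435-70726966. The last 90 coding bases of each constant gene are shown 5′ to 3′ because sequence likeness decides how well the counts can be told apart. Untranslated sequence lies beyond them and was not compared. Capitals mark the bases that differ from Iglc2 at the same distance from the coding end, and Igkc is left in lower case throughout.
Iglc1: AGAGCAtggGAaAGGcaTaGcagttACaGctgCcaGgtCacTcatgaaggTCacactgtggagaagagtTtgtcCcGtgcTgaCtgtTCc
Iglc2: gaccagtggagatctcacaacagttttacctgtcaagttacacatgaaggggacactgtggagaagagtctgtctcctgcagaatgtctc
Iglc3: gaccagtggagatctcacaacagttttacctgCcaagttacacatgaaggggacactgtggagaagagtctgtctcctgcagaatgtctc
Igkc: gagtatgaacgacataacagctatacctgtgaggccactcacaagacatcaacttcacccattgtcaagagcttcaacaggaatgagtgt
Iglc3 differs from Iglc2 at 1 of these 90 bases, and Iglc1 differs from Iglc2 at 29. Over the whole aligned coding part, Iglc2 and Iglc3 were identical at 303 of 315 positions (96.2%), with a shared run of 79 bases. Iglc1 was 73.4% identical to Iglc2, and Igkc 53.9%. Counts of Iglc2 and Iglc3 are therefore uncertain against each other, while the coding sequence of Iglc1 is more distinct.

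Lambda cells numbered 422, 144 and 154 in libraries 1, 2 and 3, against 3843, 1263 and 1837 kappa cells. They made up 9.89% (Clopper-Pearson interval 9.01 to 10.8), 10.2% (8.70 to 11.9) and 7.73% (6.60 to 8.997) of the light chain typed B cells. The interval of library 3 ends just below the lower limit of library 1 and overlaps that of library 2. Median depth was 3794.5, 3650 and 3526 UMIs per lambda cell and 4018, 3863 and 3651 per kappa cell, so lambda cells were slightly shallower in every library. Median mitochondrial shares were 7.05%, 6.41% and 6.32% in lambda cells, against 6.89%, 6.25% and 5.997% in kappa cells. Summed depth was 1874458, 589066 and 648071 UMIs for lambda cells and 18080892, 5399069 and 7647695 for kappa cells, and the lambda sums of libraries 2 and 3 limit every ratio below. The libraries held 40807434, 30114546 and 36523283 UMIs in all. Of the barcode sequences, 61 occurred in more than 1 library, and 3 lambda cells carried one of them.

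The label held for some members more clearly than for others. The lambda share of light chain UMIs in a cell, which the rule itself used and which is therefore only described, was split among the 720 cells. In 313 cells (43.5%) it was at least 95%, in 36 it lay from 90% to 95% and in 74 from 80% to 90%. It lay from 70% to 80% in 57 cells, from 60% to 70% in 95, and between 50% and 60% in 145. Thus 423 cells (58.8%) had a share of 80% or more, namely 249, 87 and 87 in the 3 libraries, and 297 had less. No Igkc UMI was seen in 211 lambda cells (29.3%), whereas 367 (51.0%) held at least 5 UMIs of both kinds.

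Kappa cells carried lambda messages as a rule. Their median was 13, 12 and 12 Iglc UMIs beside 48, 48 and 46 Igkc UMIs in libraries 1, 2 and 3, a median lambda share of 21.4%, 21.2% and 20.5%. Only 9 kappa cells of 6943 had no Iglc UMI, and 6452 (92.9%) had at least 5 of both kinds. The kappa cells thus formed 1 broad hump at a low lambda share, and the lambda class joined a thin tail of that hump to a separate peak near 100%. At the edge of the rule, 57 cells had a lambda sum ahead of Igkc by 1 to 3 UMIs, with medians of 21 Iglc and 19 Igkc UMIs. The 111 cells just outside, where Igkc led by 1 to 3, had medians of 16 and 17. Median Iglc1 was 4 UMIs just inside and 1 just outside. At the other limit, 7 members had 5 to 7 lambda UMIs, and 10 cells with 2 to 4, ahead of Igkc, were left out.

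**Figure D1:**
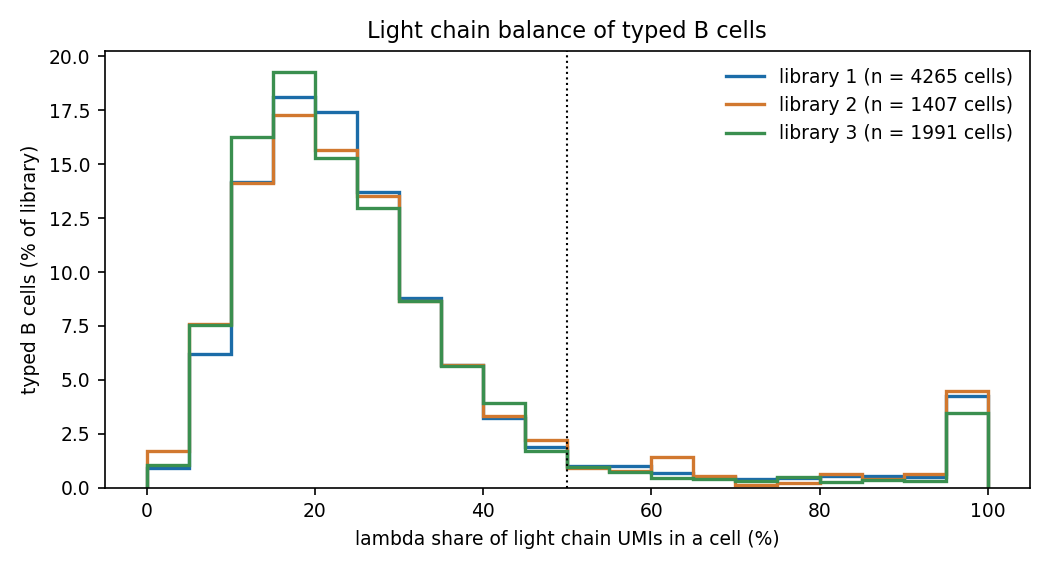
Share of light chain UMIs that came from Iglc1, Iglc2 and Iglc3 in each typed B cell (x axis, %), as the percentage of a library's typed cells in bins of 5 points (y axis). Lines stand for libraries 1, 2 and 3, and the dotted line marks 50%, above which a cell is a member. All 3 libraries show a broad hump near 20% and a narrow peak from 95% to 100%.

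The total amount of light chain message was alike in both classes. With each cell thinned to 2000 UMIs, the median was 30, 32 and 31 light chain UMIs in lambda cells, against 29, 31 and 31 in kappa cells, leaving out 14, 11 and 9 lambda and 72, 37 and 57 kappa cells that were too shallow. By this measure an Iglc2 UMI was seen in 88.8%, 88.3% and 89.1% of kappa cells, and in 3.9%, 0.8% and 0.6% of the 2503 cells of a T cell gate, which should lack the gene. Igkc was seen in 68.4%, 60.9% and 64.1% of lambda cells and in 16.7%, 5.4% and 7.3% of T cells. Among lambda cells with a share of at least 80%, Igkc was seen in 46.7%, 33.3% and 38.6%. Median depth of T gate cells before thinning was 6199, 6318 and 6346 UMIs. The minor light chain was therefore seen in B cells at a higher share than in T cells, in both classes. What gave these UMIs was not tested.

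Iglc1, the constant gene of lambda-1 chains, set the lambda cells furthest apart. These levels follow from the rule and carry no test. In UMIs per 1000000 UMIs of the class (CPM), Iglc1 stood at 8375, 7227 and 5668 in lambda cells of libraries 1, 2 and 3. Kappa cells had 568, 546 and 591 CPM, so the lambda level was 14.7, 13.2 and 9.59 times as high. Of the 15698 Iglc1 UMIs in lambda cells of library 1, 3351 were in 1 antibody-secreting cell, described below. The level and ratio of library 1 include that cell. Iglc2, of lambda-2 chains, was at 4188, 4224 and 5401 CPM in lambda cells and 1533, 1633 and 1611 in kappa cells. Iglc3, of lambda-3 chains, was at 2016, 2351 and 2058 CPM in lambda cells and 1370, 1351 and 1299 in kappa cells. The lambda to kappa ratio was thus 2.73, 2.59 and 3.35 for Iglc2 and only 1.47, 1.74 and 1.58 for Iglc3. Igkc had 3406, 3848 and 3203 CPM in lambda cells, against 12230, 13299 and 12831 CPM in kappa cells.

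The members did not share 1 constant gene. Iglc1 led in 387 of the 720 cells (53.8%), Iglc2 in 224 (31.1%), Iglc3 in 89 (12.4%), and 20 were ties. Among the 423 cells with a share of at least 80%, Iglc1 led in 276, Iglc2 in 110 and Iglc3 in 34, with 3 ties. Iglc1 led in 68.3% (62.1 to 74.0), 65.5% (54.6 to 75.4) and 56.3% (45.3 to 66.9) of these cells in libraries 1, 2 and 3, and the intervals overlap. Of the 6452 kappa cells with at least 5 lambda UMIs, Iglc1 led in 5.70%, Iglc2 in 47.0% and Iglc3 in 37.5%. By UMIs, Iglc1 gave 64.4%, 57.6% and 46.0% of the lambda message in cells with a share of at least 80%, and 16.5%, 15.6% and 17.0% in these kappa cells. The value of 64.4% includes 3351 Iglc1 UMIs of 1 antibody-secreting cell.

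Most Iglv1 messages of clear lambda cells lay in cells led by Iglc1. Iglv1, the variable gene usually joined to Iglc1 or Iglc3, lies on the minus strand at chr16:19085017-19085500. It had 64, 8 and 11 UMIs in lambda cells and 57, 14 and 18 in kappa cells, or 34.1, 13.6 and 17.0 CPM against 3.15, 2.59 and 2.35 CPM. A single antibody-secreting cell described below held 16 of the 64 in library 1. Within the cells with a share of at least 80%, 52 Iglv1 UMIs were in Iglc1-led cells, 4 in Iglc2-led and 2 in Iglc3-led cells. Iglv2, usually joined to Iglc2, had 2 UMIs in lambda cells, both in Iglc2-led cells, and none in kappa cells. Iglv3 did not set the classes apart in every library. It had 27, 4 and 6 UMIs in lambda cells and 132, 41 and 66 in kappa cells, with CPM ratios of 1.97, 0.894 and 1.07. Within the cells with a share of at least 80%, 8 Iglv3 UMIs were in Iglc1-led cells, 9 in Iglc2-led and 1 in Iglc3-led cells. Reads near the 3′ end rarely reach a variable gene, so these are small counts. The surrogate light chain genes Igll1 and Vpreb2, which precursor B cells use before a light chain exists, were at 0 in lambda cells of every library.

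**Figure D2:**
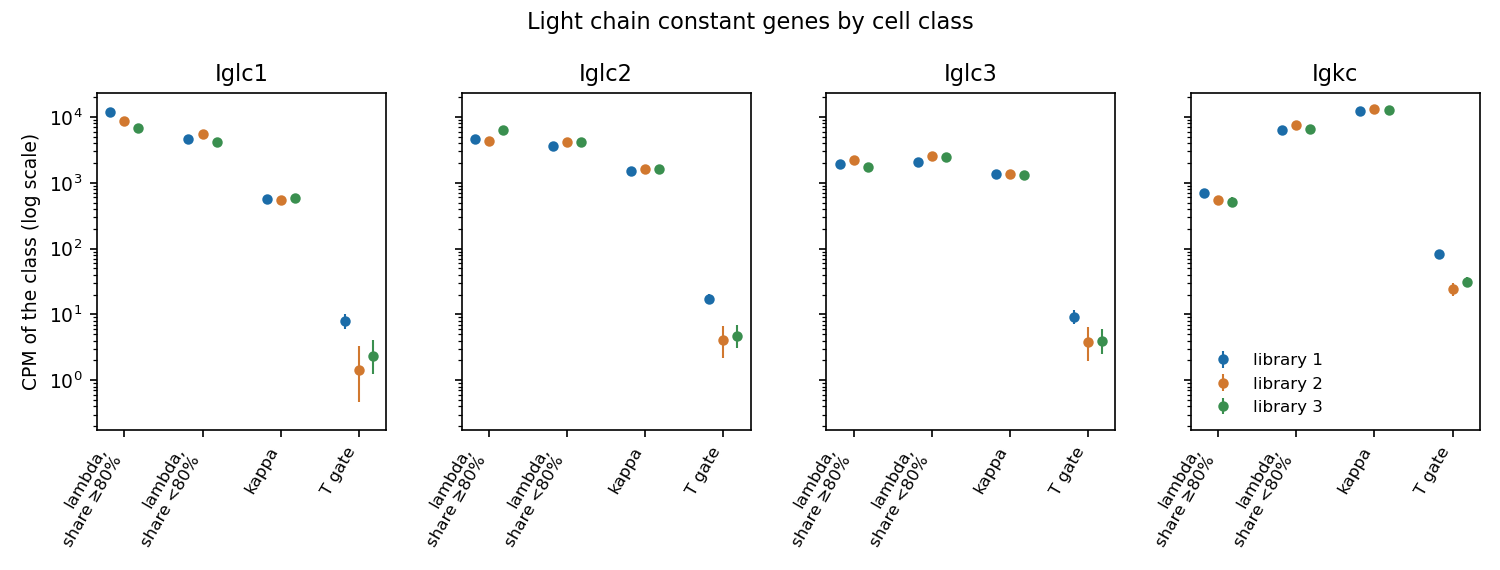
CPM on a log scale (y axis) of the 3 lambda constant genes and Igkc in lambda cells with a lambda share of at least 80%, lambda cells below 80%, kappa cells and T gate cells (x axis). Points are the 3 libraries and bars are exact 95% Poisson intervals for counting error, mostly hidden by the points. Igkc in lambda cells above 80% lies between kappa cells and T gate cells, and Iglc1 separates the classes more than Iglc2 or Iglc3.

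An antibody-secreting type of cell stood apart among the members. In library 1 a single cell of 15481 UMIs held 3351 Iglc1 UMIs, 1 Iglc2 UMI and no Igkc UMI. It also held 1031 of the 1052 UMIs of Igha, the IgA heavy chain gene, in that library's lambda cells and 598 of the 600 UMIs of Jchain, which links secreted IgA and IgM. The kappa cells of library 2 held a counterpart with 2848 Igkc, 844 Igha and 303 Jchain UMIs. Sums of secretion genes in library 1 include this cell.

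Outside the immunoglobulin genes, lambda and kappa cells had similar transcriptomes. A gene was measured when its mean CPM over both classes in the 3 libraries was at least 20, which 5134 genes were, and called when its ratio was at least 1.5 in the same direction in all 3 libraries. This is a rule of size and not a test. Of the 5134 genes, 4 were called higher in lambda cells (0.0779%) and 2 lower (0.039%). Of the lower ones, Gm30211 spans Igkc on the same strand, so its call is not independent of the rule. A test was added after these results were seen, edgeR's quasi-likelihood test of lambda against kappa sums with library as a block, TMM scaling and Benjamini-Hochberg adjustment over all 5134 genes. At an adjusted p under 0.05 it found 30 genes higher (0.584%) and 98 lower (1.91%). Without TMM factors it found 40 higher and 27 lower, so the balance of directions turns on the scaling, which moves the 2 classes apart by under 0.1 on the log2 scale. It has 2 residual degrees of freedom, and its p-values rest on how the lambda to kappa difference varies across these 3 pooled libraries. The libraries come from 3 study groups, 1 each, and are not replicates of 1 condition. The median log2 ratio over all measured genes was 0.04, 0.02 and 0.02.

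Lynx1, a member of the Ly6 family that modulates nicotinic acetylcholine receptors in neurons, was proposed as a marker of lambda cells and had the most UMIs of the genes called higher. It had 141, 47 and 49 UMIs in lambda cells and 866, 261 and 344 in kappa cells, or 75.2, 79.8 and 75.6 CPM against 47.9, 48.3 and 45.0 CPM. All 3 lambda values lay above all 3 kappa values, with ratios of 1.57 (1.30 to 1.88), 1.65 (1.18 to 2.26) and 1.68 (1.22 to 2.27). After thinning, 14.0%, 16.5% and 13.8% of lambda cells held a Lynx1 UMI, against 8.8%, 9.4% and 8.7% of kappa cells. It was higher than in kappa cells both above and below a lambda share of 80%, with 83.0, 54.2 and 74.97 CPM above and 67.0, 109 and 76.4 CPM below. It was not called in the cells above 80%, where library 2 stayed under 1.5, or with TMM scaling of the counts. In the edgeR test with library block its log2 ratio was 0.63 (adjusted p = 0.0069), higher in 3 of 3 libraries, but it was not past the threshold for the cells above 80% alone. T gate cells held 2.5, 2.6 and 1.1 CPM.

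Cacna1e, a pore-forming subunit of a voltage-gated calcium channel, was called with 63, 13 and 22 UMIs in lambda cells and 322, 57 and 89 in kappa cells. Its levels were 33.6, 22.1 and 34.0 CPM against 17.8, 10.6 and 11.6 CPM, ratios of 1.89 (1.42 to 2.48), 2.09 (1.05 to 3.87) and 2.92 (1.74 to 4.69). Cells with a clear lambda share had the higher level, 40.5, 35.0 and 44.4 CPM, while lambda cells below 80% had 26.4, 7.27 and 20.8 CPM. T gate cells held 1, 0 and 0 Cacna1e UMIs.

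Coq7, an enzyme of coenzyme Q synthesis, had 81, 14 and 23 UMIs in lambda cells and 230, 81 and 98 in kappa cells. Its ratios were 3.40 (2.60 to 4.39), 1.58 (0.829 to 2.81) and 2.77 (1.68 to 4.40), so the counting interval of library 2 included 1. Ccdc28b, a coiled-coil protein tied to the cilium, had 58, 20 and 35 UMIs against 277, 121 and 182, with ratios of 2.02 (1.49 to 2.69), 1.51 (0.894 to 2.44) and 2.27 (1.53 to 3.27). Its interval in library 2 also included 1, and it overlaps Tmem234 on the opposite strand. Both genes, and Cacna1e, were called again when lambda cells were limited to a share of at least 80%. When the 1 top-counting cell of a gene was dropped from each class and library, which removes a larger part of the smaller lambda sums, Cacna1e was still called, while Lynx1, Coq7 and Ccdc28b no longer reached 1.5 in every library. In the edgeR test the adjusted p was 0.0113 for Cacna1e, 0.000468 for Coq7 and 0.00482 for Ccdc28b. Without library 1, edgeR no longer called Cacna1e or Coq7, and without library 3 it no longer called Cacna1e or Ccdc28b.

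The other proposed markers were above 1 in all 3 libraries but did not reach 1.5 in each. Fam129c, expressed in B cells, had 52.3, 27.2 and 35.5 CPM in lambda cells and 30.4, 22.04 and 29.0 CPM in kappa cells. It overlaps Pgls on the same strand. Akap12, a scaffold for protein kinase A, had 45.3, 18.7 and 35.5 CPM against 21.7, 17.0 and 16.3 CPM. Pafah1b3, a catalytic subunit of an acetylhydrolase of platelet-activating factor, had 137, 98.5 and 126 CPM against 80.4, 78.2 and 94.7 CPM. Library 2 gave the lowest or nearly the lowest ratio for each, 1.23 for Fam129c, 1.10 for Akap12 and 1.26 for Pafah1b3. With a lambda share of at least 80%, only 2 of the 4 proposed markers, Lynx1 and Pafah1b3, lay above 1 in all libraries, against 14.6% of all measured genes. In library 2 these cells had 12.7 CPM of Akap12 and 19.1 CPM of Fam129c, below the kappa levels. Below 80% all 4 lay above 1, against 19.2%. In the edgeR test with library block, Akap12 (adjusted p = 0.0121) and Pafah1b3 (0.0036) were higher and Fam129c was not past the threshold (0.0726). Without library 1 neither Akap12 nor Pafah1b3 passed. These 4 markers were proposed from these data, so their direction is not independent evidence.

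Gm30211, a long noncoding RNA, was lower in lambda cells, at 108, 114 and 91.0 CPM against 257, 239 and 239 CPM in kappa cells. It spans chr6:70719074-70740554 on the plus strand and contains Igkc on the same strand, so its reads cannot be told apart from unspliced kappa message. Since the rule used Igkc, the lower level of Gm30211 is only described. Per 100 Igkc UMIs there were 3.18, 2.96 and 2.84 Gm30211 UMIs in lambda cells and 2.10, 1.79 and 1.86 in kappa cells. Ifitm1, an interferon-induced membrane protein, was the other gene called lower, from 2, 23 and 16 UMIs in lambda cells against 61, 323 and 294 in kappa cells. Its intervals included 1 in libraries 1 and 3, the adjusted p by edgeR was 0.0654, and it was not called with its top-counting cells dropped. Around the lambda constant genes, within 1 Mb, 11 genes were measured and none was called, with 4 above 1 in all libraries and 1 below, against 19.2% above and 11.6% below among all measured genes. Around Igkc, 6 were measured and Gm30211 was the only one called.

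**Figure D3:**
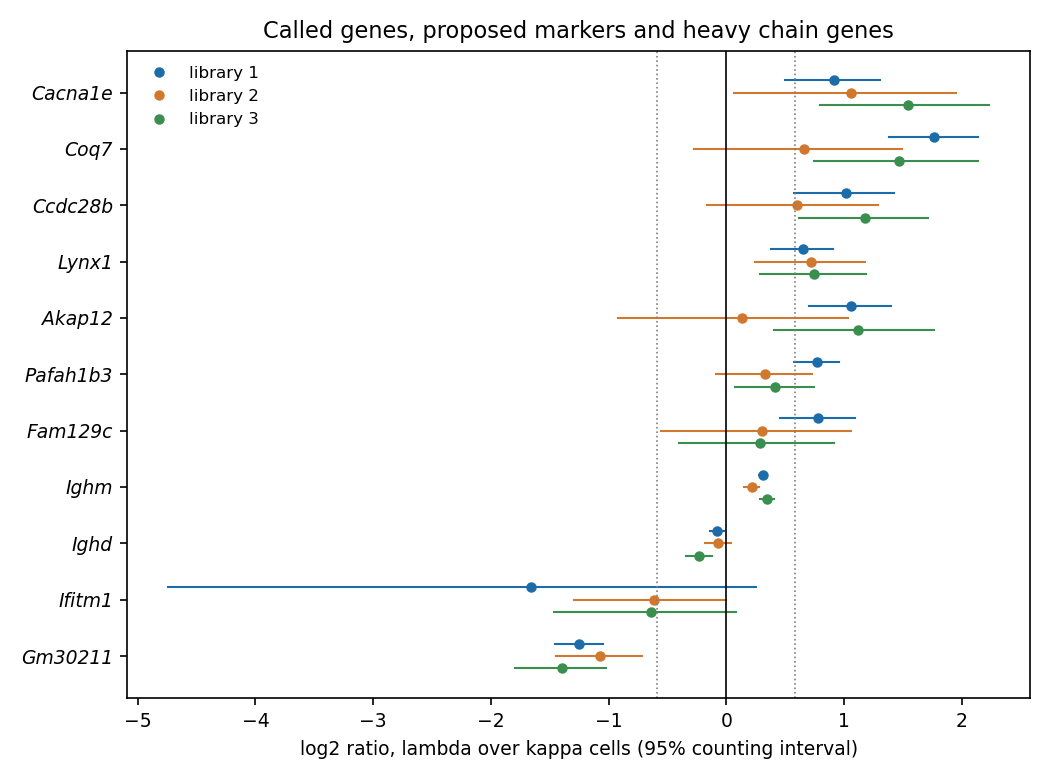
Log2 ratio of CPM in lambda over kappa cells (x axis) for the called genes, the other proposed markers, Ighm and Ighd (y axis), in libraries 1 to 3. Bars are exact 95% intervals for counting error, and dotted lines mark a ratio of 1.5 in either direction. Gm30211 lies left of the lower line in every library and Lynx1 right of the upper one, while Akap12, Pafah1b3 and Fam129c fall short of it in library 2.

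The heavy chain genes of naive B cells were both expressed. Ighm, the IgM heavy chain, was higher in lambda cells, at 4128, 3865 and 4131 CPM against 3323, 3328 and 3245 CPM, with ratios of 1.24, 1.16 and 1.27. Ighd, the IgD heavy chain, was lower in lambda cells, at 1256, 1299 and 1111 CPM against 1324, 1364 and 1301 CPM, with ratios of 0.949, 0.952 and 0.854. Neither reached a ratio of 1.5. The Ighd interval of library 2 reached 1.03. Ms4a1, a defining surface protein of B cells, was expressed in both classes, at 1434, 1268 and 1193 CPM in lambda cells and 1253, 1137 and 1178 CPM in kappa cells.

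MHC class II genes, which present peptides to helper T cells, were lower in lambda cells in every library, by small amounts. Of 11 measured genes, 9 lay below 1 in all 3 libraries and none lay above 1 in all 3, whereas 11.6% of all measured genes lay below and 19.2% above. None reached 1.5. In the edgeR test with library block 8 of the 11 were lower and none higher at an adjusted p under 0.05. Among all measured genes the test called 1.91% lower and 0.584% higher. Without TMM factors 6 of the 11 were lower. Without library 1 it was 5. The median log2 ratio of the list was -0.27, -0.19 and -0.33, and the summed level was 0.859, 0.896 and 0.808 times that of kappa cells. Cd74, the invariant chain that guides class II assembly, had 11703, 13187 and 12063 CPM in lambda cells and 13245, 14444 and 14522 CPM in kappa cells. H2-Aa, an alpha chain, had 3321, 3616 and 3299 CPM against 4025, 4192 and 4302 CPM. All lambda values of each lay below all kappa values. The other classical chains, H2-Ab1 and H2-Eb1, ran from 0.777 to 0.892 times the kappa level. The edgeR log2 ratio was -0.26 for Cd74 (adjusted p = 5.38e-09) and -0.36 for H2-Aa (1.56e-07).

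The class II genes were lower both above and below a lambda share of 80%. In lambda cells with a share of at least 80%, all 11 genes were below 1 in all 3 libraries, against 13% of all measured genes, and the summed level was 0.837, 0.916 and 0.801 times that of kappa cells. In those below 80% it was 8 of 11, against 12.2%, and 0.882, 0.873 and 0.817 times. Ciita, the transactivator of class II genes, was near 1, with log2 ratios of -0.08, 0.05 and -0.20. The beta chain H2-Eb2, chosen after its values were seen, had the lowest ratios of the list, 0.707, 0.719 and 0.499.

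**Figure D4:**
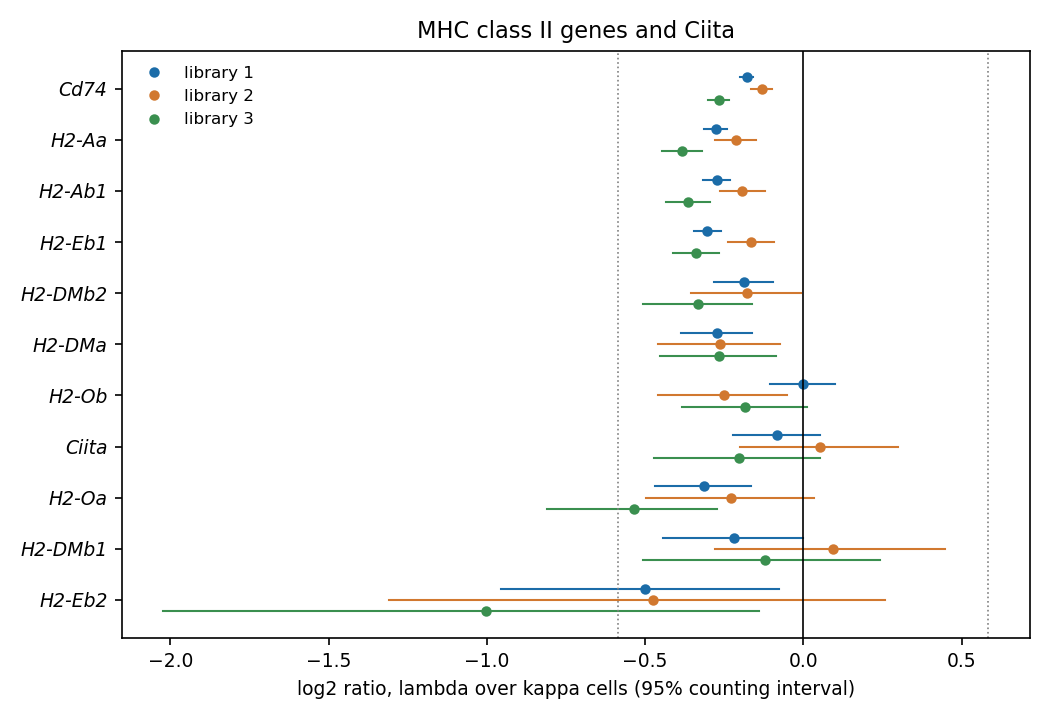
Log2 ratio of CPM in lambda over kappa cells (x axis) for MHC class II genes and Ciita (y axis, highest mean CPM at the top), in libraries 1 to 3. Bars are exact 95% intervals for counting error, and dotted lines mark a ratio of 1.5. The 4 most abundant genes lie below 0 in all 3 libraries.

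Genes of follicular and of transitional B cells differed by small amounts, and none reached 1.5 in every library. Of 10 measured genes of follicular B cells, the main recirculating type, 5 lay below 1 in all 3 libraries and 1 above, against 11.6% below and 19.2% above among all measured genes. The edgeR test called 2 of the 10, Cr2 (adjusted p = 0.0103) and Icosl (0.00985), both lower, against 1.91% of all measured genes. Fcer2a, the low-affinity IgE receptor, had 523, 416 and 318 CPM in lambda cells and 582, 431 and 360 CPM in kappa cells. Cr2, a complement receptor, had 118, 105 and 74.1 CPM against 155, 114 and 104 CPM. After thinning, a Fcer2a UMI was seen in 52.2%, 46.6% and 40% of lambda cells and in 63.0%, 53.5% and 48.7% of kappa cells.

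Among 9 measured genes of transitional B cells, the recent arrivals from the bone marrow, 4 lay above 1 in all libraries and none below, against the same shares of all genes. These were Cd24a, Vpreb3, Sox4 and Ebf1, of which Cd24a, Vpreb3 and Sox4 were named after their values were seen. Cd24a, a surface protein high on immature B cells, had 394, 224 and 264 CPM in lambda cells and 233, 182 and 166 CPM in kappa cells. Vpreb3 had 536, 492 and 551 CPM against 356, 479 and 513 CPM, so its difference was mainly in library 1. Ebf1, a B lineage transcription factor, had log2 ratios of 0.24, 0.06 and 0.02. The edgeR test with library block called Cd24a (adjusted p = 1.88e-05), Sox4 (0.043) and Apoe (0.0204) higher and Ms4a4c (0.0257) lower. That is 3 and 1 of the 9, against 0.584% higher and 1.91% lower among all measured genes. Sox4 was not called without library 1. With a lambda share of at least 80% 1 of the 9 was above 1 in all libraries and 1 was below, near the 14.6% and 13% of all measured genes. Below 80% it was 6 and none, against 19.2% and 12.2%.

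Genes of the endoplasmic reticulum and secretion, which fold and export antibody chains, showed small differences. Of 17 measured, 8 lay above 1 in all libraries and none below, against 19.2% above and 11.6% below among all genes. The edgeR test called 1 of the 17, Hsp90b1 (adjusted p = 0.0398), higher, against 0.584% of all measured genes. Hsp90b1 was not called without library 1 or 2. The list of 18 genes had summed levels 1.11, 1.16 and 1.07 times those of kappa cells. Hsp90b1, a chaperone, had 363, 334 and 245 CPM in lambda cells and 286, 238 and 229 CPM in kappa cells. Hspa5, the chaperone that binds unassembled heavy chains, had 219, 210 and 191 CPM against 174, 173 and 174 CPM. Mzb1, a chaperone for IgM from outside this list, had 466, 450 and 503 CPM against 377, 381 and 397 CPM. The first value of each of these chaperones in lambda cells includes the antibody-secreting cell of library 1. Mzb1 is on the list of plasma (antibody-secreting) cell genes. Of the 5 measured genes on that list, it alone lay above 1 in all libraries and none lay below. From that list the edgeR test called only Mzb1, higher, but not without library 1 or 3.

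**Figure D5:**
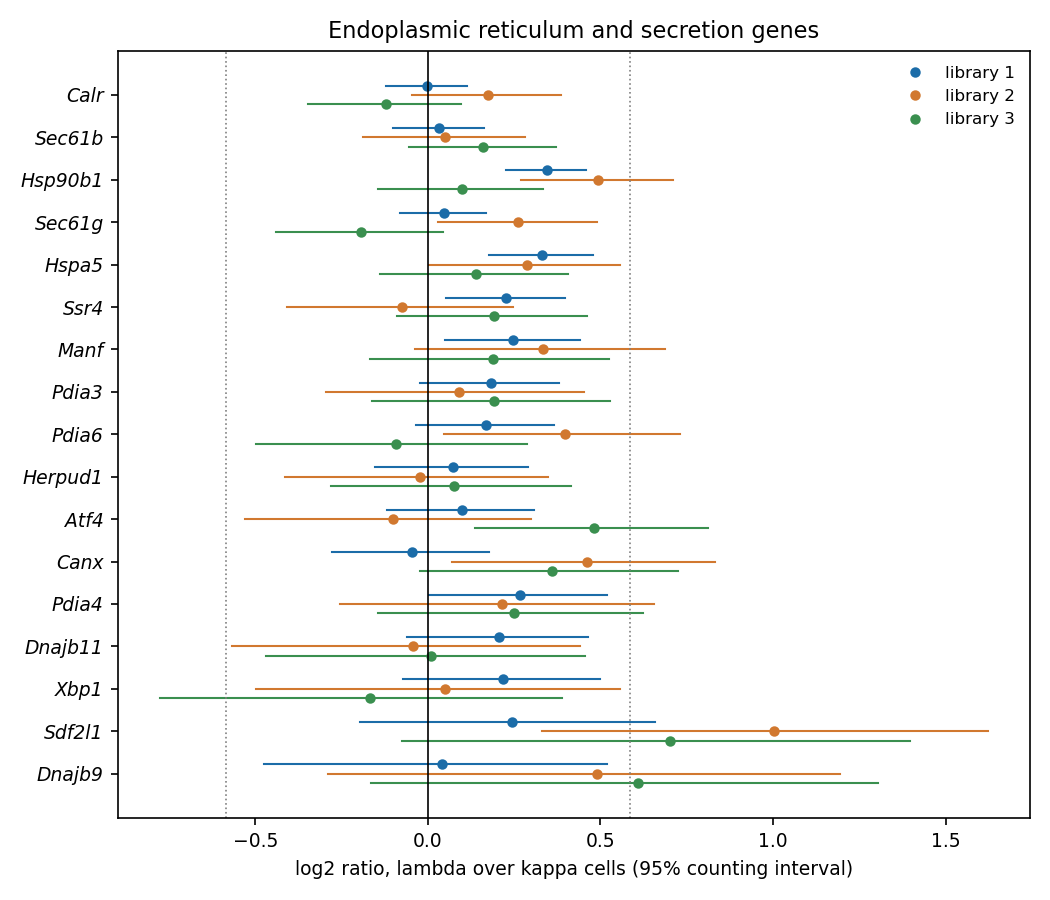
Log2 ratio of CPM in lambda over kappa cells (x axis) for genes of the endoplasmic reticulum and secretion (y axis, highest mean CPM at the top), in libraries 1 to 3. Bars are exact 95% intervals for counting error, and dotted lines mark a ratio of 1.5. Of the 17 genes, 8 lie above 0 in all 3 libraries and none lies below 0 in all 3.

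Few genes of receptor signalling, transcription and survival were called by the edgeR test. Among all measured genes, 19.2% lay above 1 in all libraries and 11.6% below, and edgeR called 0.584% higher and 1.91% lower. These are the shares to set beside the counts in this paragraph. Of 28 measured B cell receptor signalling genes, 9 lay above 1 in all libraries and 8 below, and the edgeR test called only Cd81, lower (adjusted p = 0.0439). Cd37 and Bank1, the most abundant of them, had log2 ratios of 0.05, 0.02 and -0.00 and of -0.11, 0.06 and -0.16. Of 24 transcription factors, 8 lay above and 5 below, and edgeR called only Mef2c, lower (adjusted p = 0.00815). Of 13 survival genes, 3 lay above and 1 below, and edgeR called only Pim1, a survival kinase, higher (adjusted p = 0.00217), with log2 ratios of 0.50, 0.47 and 0.70. Of 15 homing receptor genes, 2 lay above and 4 below. The edgeR test called 3 of the 15 lower, Ccr6, Itga4 and Gpr183, against 1.91% of all measured genes. Gpr183, a receptor that guides B cells in follicles, had log2 ratios of -0.29, -0.48 and -0.39 (adjusted p by edgeR 0.00239). Zeb2, a transcription factor of memory and atypical B cells, had 173, 148 and 188 CPM in lambda cells and 124, 107 and 102 CPM in kappa cells. Marcks, a substrate of protein kinase C, had 78.4, 91.7 and 110 CPM against 49.998, 63.7 and 47.5 CPM. By edgeR with library block both were higher, with an adjusted p of 0.000764 for Zeb2 and 0.00223 for Marcks. Zeb2 is 1 of 3 measured genes on the memory and atypical B cell list. Of these, 2 lay above and 1 below, and edgeR called only Zeb2. Marcks is 1 of 8 measured genes on the marginal zone B cell list, of which 2 lay above and 2 below. From that list edgeR called Marcks and Mzb1 higher and Cr2 lower.

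Genes that vary with stress or infection differed more between libraries than between light chain classes. The summed level of 17 glucocorticoid-induced genes, of which 9 were measured, was 2281, 3609 and 3208 CPM in lambda cells and 2119, 3507 and 3256 CPM in kappa cells of libraries 1, 2 and 3. Tsc22d3, a classic glucocorticoid target, had 306, 874 and 667 CPM in lambda cells and 277, 813 and 701 CPM in kappa cells. The 25 interferon-stimulated genes, of which 16 were measured, summed to 1881, 2448 and 2992 CPM in lambda cells and 2026, 2290 and 2924 CPM in kappa cells. In each list 1 measured gene lay above 1 in all libraries and 1 below, against 19.2% above and 11.6% below among all measured genes. The edgeR test called none of the 9 and 1 of the 16, Ly6a, lower (adjusted p = 0.000286), against 1.91% of all measured genes.

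Messages of other cells were present in both classes. The 5 platelet genes were all below 1 in every library, against 11.6% of all measured genes. They summed to 4751, 2064 and 2415 CPM in lambda cells and 5153, 2234 and 2683 CPM in kappa cells. With a lambda share of at least 80%, none of the 5 was below 1 in all libraries, against 13% of all measured genes. Below 80% it was 3 of 5, against 12.2%. The 7 monocyte markers, of which 2 were measured, summed to 778, 1799 and 708 CPM against 932, 1054 and 742 CPM. All 7 summed to 429, 1102 and 272 CPM in lambda cells with a share of at least 80%, and to 1148, 2595 and 1254 CPM in those below. In each library 1 cell below 80% held most Lyz2 UMIs of that band, 689 of 958, 622 of 674 and 263 of 319. Without these 3 cells the sum below 80% was 331, 219 and 205 CPM. Kappa cells without their own top Lyz2 cells had 876, 927 and 631 CPM. Dropping 1 cell takes a far larger part of the smaller lambda band, so this order is not read as a difference. T cell markers summed to 67.8, 25.5 and 72.5 CPM in lambda cells and 58.2, 30.7 and 50.9 CPM in kappa cells. The NK markers Ccl5 and Gzma were at 190 and 105 UMIs in lambda cells of library 3, and 1 cell held 186 and 102 of them. Haemoglobin-led erythroid markers were 0.480, 0.105 and 1.04 times the kappa level. In library 3, 1 lambda cell held 1197 of 1857 Hbb-bs UMIs and 654 of 1201 Hba-a1 UMIs. The 4 measured haemoglobin genes summed to 0.748, 0.106 and 0.162 times the kappa level with a share of at least 80%. Below 80% it was 0.196, 0.104 and 2.14 times. The edgeR test called all 4 lower over all lambda cells, against 1.91% of all measured genes.

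Against kappa cells, 26 genes were called higher in the 297 lambda cells with a share below 80% (0.504% of 5158 measured) and 3 lower (0.0582%). Above 80%, 3 were called higher and 3 lower, each 0.0584% of 5137. Those called lower were S100a4, Hbb-bt and Gm30211. Named after their values were seen, the 26 included the monocyte genes Ccr2, Ms4a6c, Fn1, Lgals3 and Mpeg1, the neutrophil collagenase Mmp8, and also Cd24a and Pim2. When the 3 cells with the most Lyz2 were left out, an alternative added after seeing the data, none of these myeloid genes was called higher. Kappa cells kept their own top Lyz2 cells in these calls, so myeloid genes were pushed down on the lambda side only. Ccr2 was called lower there, which is not read as a difference for that reason. Cd24a and Pim2 were still called higher, with log2 ratios of 0.89, 0.68 and 1.14 for Cd24a. S100a4, a calcium-binding protein abundant in myeloid cells, stood at 73.6, 156 and 163 CPM below 80% with these cells. Without them it stood at 19.2, 0 and 7.32 CPM. Kappa cells had 48.8, 93.3 and 76.0 CPM with their top Lyz2 cells and 45.1, 74.7 and 64.2 CPM without. Lambda cells with a share of at least 80% had 17.6, 54.2 and 13.9 CPM of S100a4. Dropping 1 cell takes a larger part of the smaller lambda band. The higher calls of these myeloid genes thus rested on 1 cell a library. Whether barcodes that hold 2 cells account for the mixed light chains was not tested. Cells with the 6% highest doublet scores of each library were 5.45%, 2.08% and 1.30% of lambda cells and 5.204%, 1.98% and 3.43% of kappa cells.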

How the data were processed

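The deposited matrix holds whole-number UMI counts per gene and barcode for 31053 genes, made with Cell Ranger 6.0.2 per the file headers. Cell Ranger 4.0.0, Trimmomatic 0.39, R 4.0.2 and Seurat 3.0 are listed, per the submitters' processing notes, for the GRCm38 build. The sleep restriction condition (SASD) named in the series text was not analysed here. The authors' cell annotation was not given in the sources used here, so cells were gated on raw counts. The members, gene lists and tests were chosen with earlier results of these data known.

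UMIs were summed per class and library and scaled to CPM with numpy 2.4.6 and scipy 1.17.1 under Python 3.11.15. Exact conditional intervals were used for ratios, exact Poisson intervals for levels and Clopper-Pearson intervals for shares, all at 95%. They cover counting error only, and those on summed UMIs leave out the spread between cells. Genes of immunoglobulin biotype were left out of calls. The ratio and calling step, and an edgeR quasi-likelihood fit with library as block that was added later, were tested on simulated data. The text names the light chain genes, the proposed markers, the 12 called genes with the largest smallest-library ratio in each direction, and from each list its called members or else its 2 most abundant. Others are named where they set out a count or a figure, after their values were seen. Scrublet (scanpy 1.11.5) set its automatic threshold so high in library 1 that only 6 cells were marked, so the 6% highest scores were left out as an alternative, and doublets stayed in the main result. TMM factors came from edgeR 4.0.16 in R 4.3.3, and shifted log2 levels by at most 0.05. Other alternatives are given with their effect in the closing section.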

Additional observations from a re-analysis of the deposited data

How the results depend on the processing

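The lambda share of typed B cells in libraries 1, 2 and 3 became 12.5%, 12.9% and 8.78% when the leading light chain had to hold 80% of light chain UMIs in both classes. With Iglc1 alone in place of the lambda sum, an alternative added after seeing the data, it was 5.92%, 5.96% and 4.14%. It stayed within its interval at 10 light chain UMIs, at 500 genes, at 20% mitochondrial UMIs and without the highest doublet scores. The counts of 4 genes higher and 2 lower were small and moved with most settings. They were 8 and 5 at 80% dominance, 2 and 1 at 20% mitochondrial UMIs, 2 and 3 with TMM scaling, 7 and 8 with cells thinned to 2000 UMIs, and 1 and 1 at a mean CPM of 50. They were 0 and 1 at a fold of 2, 129 and 25 with no filter beyond 1 UMI in every class and library, and 7 and 6 for lambda cells with at least 95% lambda UMIs, also added later. With the top-counting cell of each gene dropped from every class and library, which takes a larger part of the lambda sums, they were 1 and 11, and of the genes called in the report Cacna1e and Gm30211 remained. Without library 1 they were 29 and 20, without library 2 they were 16 and 3, and without library 3 they were 6 and 10. Gm30211 was called under all 13 settings followed per gene, Cacna1e under 11, Ccdc28b under 10, Coq7 under 9, Lynx1 under 8 and Ifitm1 under 6. Gm30211 spans Igkc, which the rule used, so its count of settings is not independent of the rule. Of 143 gene values, each a median over libraries, 132 moved by less than the spread between libraries, 11 moved more and none changed sign. By edgeR's quasi-likelihood test with library as block, added after the results were seen, 30 genes were higher and 98 lower. These included all 4 called higher and, of the 2 called lower, Gm30211. Without TMM factors the test called 40 and 27, and with a lambda share of at least 80% 14 and 37. With 1 library left out it called 24 to 40 higher and 34 to 108 lower. In the band under 80%, leaving out the top Lyz2 cell of each library changed 26 higher and 3 lower to 20 and 16, with 11 of the higher and 1 of the lower genes shared. Kappa cells kept their top Lyz2 cells in that setting, so the count of lower genes partly follows from the choice. The 3 study groups could not be compared because each is 1 library with no label. The lambda sums of libraries 2 and 3 limit detection of differences in genes with few UMIs.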
